A study of Homo sapiens with 2 samples.

Results

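The genes described here encode the core of the spliceosome and its relatives: the Sm proteins and other snRNP proteins named SNRP, the Sm-like LSM proteins, the SF3A and SF3B subunits, the U2AF subunits and the proteins named PRPF. They were chosen by gene symbol alone, as rows named SNRP, LSM, SF3A, SF3B, PRPF or U2AF with the usual letter or number endings, leaving out hyphenated names and pseudogenes. This gave 49 genes of 55773 symbols. All 49 were above 0 in both libraries and all 49 reached at least 1 RPKM in a library, the level called measured here, as did 11802 genes in the whole table. RPKM is the number of reads scaled to exon length and to library size. The length covers all annotated exons of a gene and can exceed that of the transcript in use. Levels of different genes can therefore be compared only roughly on it.

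The spliceosome removes introns from pre-mRNA. Its small nuclear ribonucleoproteins (snRNPs U1, U2, U4, U5) each carry a ring of Sm proteins on their RNA, whereas U6 carries a ring of LSm proteins, and a related LSm ring acts in mRNA decay in the cytoplasm. U1 marks the 5′ splice site, U2AF and SF3B settle U2 at the branch region and 3′ splice site, and PRPF proteins of the U4/U6.U5 tri-snRNP and the PRP19 complex carry the assembly to its active form. In urothelial carcinoma the group is best known for recurrent mutation of SF3B1 in some tumours, a matter that expression values do not address.

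Total RNA of BFTC 905, an established human urothelial carcinoma cell line with little ANGPTL4 of its own, was sequenced in 2 libraries. The ANGPTL4 library came from cells with a plasmid that expresses ANGPTL4, a secreted inhibitor of lipoprotein lipase. The vector control library came from cells with the empty plasmid pcDNA3.1. Both came from stable clones selected with G418, and the labels do not say whether each library holds a single clone or a pool of clones. Differences between clones therefore cannot be told apart from effects of the plasmid. With 1 library per group no test between conditions was possible, and every difference below compares these libraries only.

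The ANGPTL4 gene itself was at 91.2 RPKM in the ANGPTL4 library and 3.92 RPKM in the vector control library, in the direction of the labels. Depth, worked out from the steps of the RPKM values, was 3233596 reads in the ANGPTL4 library and 6572767 reads in the vector control library. Of 11 urothelial and epithelial markers 10 reached 1 RPKM, all except UPK3A, which was listed at 0 in both libraries. Among 7 leukocyte, endothelial and fibroblast markers the highest value was 0.0519 RPKM in the ANGPTL4 library and 0.0640 RPKM in the vector control library.

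Most core spliceosome genes differed by less than 1.5-fold between the libraries, with differences in both directions. The log2 ratio used here is that of RPKM + 1 in the ANGPTL4 library over RPKM + 1 in the vector control library. On this scale 2 of 49 members, SNRPE and LSM5, were at least 2-fold lower in the ANGPTL4 library, against 1.91% of all measured genes. No member was at least 2-fold higher, against 1.19% of all measured genes. At the smaller limit of 1.5-fold, 4 members were lower (SNRPE, LSM5, LSM3 and SNRPB), where 9.25% of all measured genes were, and none was higher, where 3.08% were. The other 45 members differed by less than 1.5-fold on this scale, on which the added 1 RPKM draws the ratios of low genes towards 1. Without it LSM3, at a ratio of 0.494, would pass 2-fold lower, and PRPF40B, at 1.67-fold higher, would pass 1.5-fold as well.

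The median log2 ratio of the 49 members was -0.16, and that of all measured genes was -0.11. Of the members 28 were lower in the ANGPTL4 library, or 57.1%, compared with 64.4% of all measured genes. Set against the median of all genes instead of 0, 25 members lay below it and 24 above it. As a group the members thus lay close to the rest of the transcriptome, and the description below turns on single genes.

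**Figure D1:**
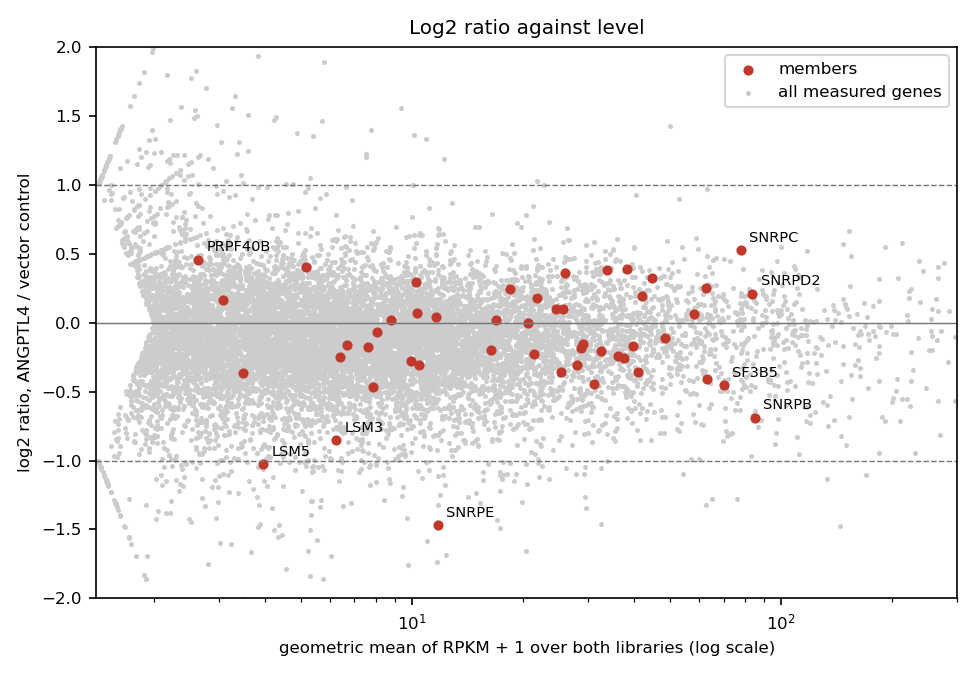
Log2 ratio of RPKM + 1 (ANGPTL4 over vector control, vertical axis) against the geometric mean of RPKM + 1 over both libraries (horizontal axis, log scale), with the 49 members in red and all 11802 measured genes in grey; dashed lines mark 2-fold, and genes outside the axis range are not drawn. SNRPE at -1.47 and LSM5 at -1.03 are the members below the lower dashed line, and SNRPC at 0.53 is the highest member.

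For single genes, reads were recovered from the RPKM steps, and a 95% interval of the RPKM ratio (ANGPTL4 over vector control, with no pseudocount) was computed from them. These intervals cover counting error only, not differences between cultures or library preparations. They lay below 1 for 15 members, or 30.6%, against 26.5% of all measured genes with recovered reads. They lay above 1 for 12 members, or 24.5%, against 8.49% of those genes. The members have more reads than most genes, with a median level of 22.2 RPKM in the ANGPTL4 library and 22.1 RPKM in the vector control library, against 5.41 and 6.03 RPKM for all measured genes in these libraries, and more reads give narrower intervals. How far level accounts for the excess on the upper side was not tested. All 27 members whose interval left out 1 kept the sign of their log2 ratio under each alternative that gave a value. Much of this was fixed in advance, since another pseudocount, minimum or choice of row cannot change a member's sign. The other scalings and the length correction raised the members' log2 ratios, so only the 15 lower members could have changed sign. The sizes changed, with SF3B1 at -0.20 as deposited and -0.05 after upper-quartile scaling. Intervals were computed for the deposited scaling only, and differences called beyond counting error hold for that scaling.

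**Figure D2:**
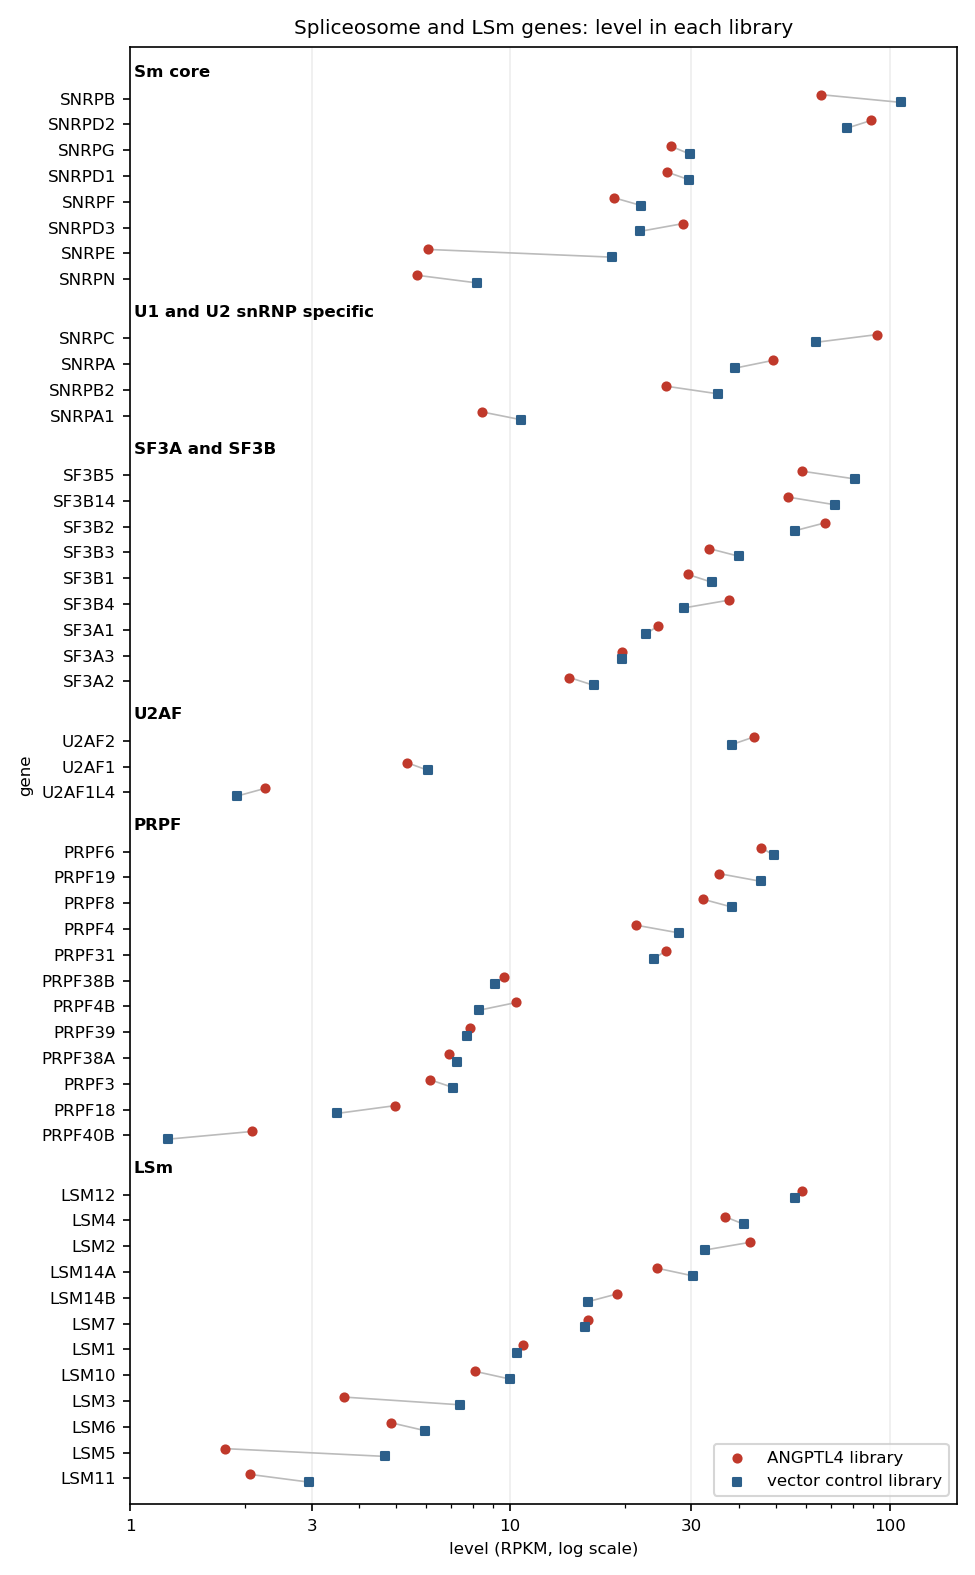
Level of each member reported in RPKM (log scale) in the ANGPTL4 library (circles) and the vector control library (squares), 1 library each, by class and ordered by the vector control level; grey lines join the values of a gene. Levels run between 1.78 and 92.5 RPKM in the ANGPTL4 library and between 1.26 and 107 RPKM in the vector control library, and SNRPE, LSM5 and LSM3 show the widest gaps to the left.

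The Sm ring consists of 7 different proteins in equal number, encoded by SNRPB, SNRPD1, SNRPD2, SNRPD3, SNRPE, SNRPF and SNRPG, and it forms around the RNA of U1, U2, U4 and U5. SNRPE (chromosome 1, 203830731 to 203839678, hg19) had 6.08 RPKM in the ANGPTL4 library and 18.6 RPKM in the vector control library. The reads behind them were 29 in the ANGPTL4 library and 180 in the vector control library. The ratio was 0.327 (95% interval 0.213 to 0.487) and the log2 ratio -1.47. SNRPE had the lowest log2 ratio of all 49 members, and in the ANGPTL4 library it was the lowest gene of the ring, as it was in the vector control library.

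SNRPB (chromosome 20, 2442280 to 2451499), which encodes the B and B′ proteins, was the most abundant member in the vector control library. It had 66.0 RPKM in the ANGPTL4 library and 107 RPKM in the vector control library, a ratio of 0.616 (0.549 to 0.691). Its close paralogue SNRPN, expressed mainly in brain and heart and imprinted, had 5.67 RPKM in the ANGPTL4 library and 8.20 RPKM in the vector control library (0.692, 0.513 to 0.924). SNRPB and SNRPN are similar enough to share reads, and SNRPN lies within the region of SNURF, whose 2 rows had 5.49 and 1.17 RPKM in the ANGPTL4 library and 10.2 and 2.49 RPKM in the vector control library. The values of SNRPN are therefore uncertain, while SNRPB and SNRPN both lay on the lower side.

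The D proteins went in different directions. SNRPD2 had 89.0 RPKM in the ANGPTL4 library and 76.8 RPKM in the vector control library (ratio 1.16, 1.03 to 1.30). SNRPD3 had 28.4 RPKM in the ANGPTL4 library and 21.9 RPKM in the vector control library (1.30, 1.10 to 1.53). The region of SNRPD2 overlaps that of QPCTL, at 9.42 RPKM in the ANGPTL4 library and 9.97 RPKM in the vector control library. That of SNRPD3 overlaps GUCD1, at 13.9 and 14.8 RPKM in the same order, so reads of these overlaps are uncertain. SNRPD1, the partner of SNRPD2 in ring assembly, had 25.9 RPKM in the ANGPTL4 library and 29.6 RPKM in the vector control library (0.874, 0.719 to 1.06), which is within counting error. SNRPF and SNRPG, which join SNRPE in a trimer before the ring closes, were also within counting error. SNRPF had 18.8 RPKM in the ANGPTL4 library and 22.1 RPKM in the vector control library (0.849, 0.711 to 1.01). SNRPG had 26.5 RPKM in the ANGPTL4 library and 29.7 RPKM in the vector control library (0.894, 0.735 to 1.08). SNRPE thus stood apart from both partners of its trimer, whose intervals did not reach as low as the upper bound of its own.

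Within the ring the highest RPKM was 14.6 times the lowest in the ANGPTL4 library and 5.76 times in the vector control library. Without SNRPE the spans were 4.74 times and 4.88 times in the same order. The order of levels also changed at the top, with SNRPD2 above SNRPB in the ANGPTL4 library and SNRPB above SNRPD2 in the vector control library. The median log2 ratio of the 8 Sm genes, SNRPN included, was -0.21. That of all measured genes was -0.11, as above.

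Pseudogenes named after members were another possible place for reads of these genes. The table held 47 such rows for 11 members, 20 of them for SNRPG and 9 for SNRPE, and all 47 were listed at 0 in both libraries. How reads that match both a gene and a pseudogene were assigned is not given in the sources used here, so a loss of such reads was not tested for SNRPE.

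The SNRP genes specific to U1 and U2 snRNPs went in both directions. SNRPC (chromosome 6, 34725183 to 34741571), the U1-C protein that stabilises pairing of U1 with the 5′ splice site, had the highest log2 ratio of all members, 0.53. It had 92.5 RPKM in the ANGPTL4 library and 63.9 RPKM in the vector control library (ratio 1.45, 1.27 to 1.65), which made it the most abundant member of all in the ANGPTL4 library. SNRPA, the U1-A protein, had 49.2 RPKM in the ANGPTL4 library and 39.1 RPKM in the vector control library (1.26, 1.10 to 1.43). The region of SNRPA overlaps that of C19orf54, at 7.61 RPKM in the ANGPTL4 library and 5.45 RPKM in the vector control library, so reads of the overlap are uncertain. The U1-70K gene SNRNP70, which the symbol rule leaves out and which was added after its value was seen, had 53.4 RPKM in the ANGPTL4 library and 41.9 RPKM in the vector control library (1.27, 1.17 to 1.39). At the deposited scaling all 3 U1-specific genes were therefore higher in the ANGPTL4 library beyond counting error, each by less than 1.5-fold.

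The SNRP genes of U2 had lower levels in the ANGPTL4 library, one of them beyond counting error. SNRPB2, the U2-B″ protein, had 25.7 RPKM in the ANGPTL4 library and 35.3 RPKM in the vector control library (ratio 0.727, 0.600 to 0.878). SNRPA1, the U2-A′ protein that pairs with it, had 8.43 RPKM in the ANGPTL4 library and 10.7 RPKM in the vector control library (0.791), with an interval that starts at 0.621 and ends just above 1. Other proteins of U2, the SF3A and SF3B subunits described below, went in both directions, and no difference between U1 and U2 genes was tested.

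Promoters are shown for members that carry a short word found in many of them, among these SNRPE and SNRPC, the members with the lowest and the highest log2 ratio. Among promoter windows from RefSeq (GRCh38.p14, 250 bases before to 50 bases after a start), 40 of the 49 members had an entry. The heptamer CCGGAAG, which holds the GGAA core bound by ETS factors, was searched on both strands after the sequences had been read. It was found in the windows of 17 of 40 members, or 42.5%, against 23.7% of 8702 measured protein-coding genes and 12.2% of all 27305 genes with a window. Since the heptamer was picked from the members' own sequences, an excess over other genes is in part fixed by that choice and is given as a description only. The TATA box hexamer TATAAA, likewise on both strands, was found in 1 of 40 members, or 2.5%, against 7.88% of the measured protein-coding genes. The 250 bases before the start of SNRPB (chr20:2470790-2471039, minus strand) and of SNRPC (chr6:34757255-34757504, plus strand) are given first, in gene orientation with the heptamer, or its reverse complement CTTCCGG, in capitals. In SNRPC both overlap in a palindrome.
SNRPB: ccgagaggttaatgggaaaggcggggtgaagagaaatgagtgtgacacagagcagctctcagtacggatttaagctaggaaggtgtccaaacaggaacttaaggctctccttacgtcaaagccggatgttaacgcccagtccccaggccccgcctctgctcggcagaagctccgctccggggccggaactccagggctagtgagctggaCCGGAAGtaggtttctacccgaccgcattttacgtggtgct
SNRPC: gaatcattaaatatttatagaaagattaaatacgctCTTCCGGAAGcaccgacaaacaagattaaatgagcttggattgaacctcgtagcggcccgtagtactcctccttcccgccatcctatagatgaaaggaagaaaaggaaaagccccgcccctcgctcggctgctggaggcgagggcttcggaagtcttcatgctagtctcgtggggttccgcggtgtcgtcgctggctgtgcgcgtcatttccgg

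Stretches of 30 bases around a match follow for 5 further members with the heptamer, 3 with a lower and 2 with a higher level in the ANGPTL4 library. LSM3 and PRPF40B, which also lie near the ends of the ratios, do not hold it in their windows. The SNRPE stretch (chr1:203861597-203861626, plus strand) comes from a window placed on a start downstream of the gene's first annotated base, and the LSM5 stretch (chr7:32495492-32495521, minus strand) from the window at the outermost start. Those of SF3B14 (chr2:24076467-24076496, minus strand), SF3B4 (chr1:149927811-149927840, minus strand) and SNRPD2 (chr19:45692361-45692390, minus strand) are given in the same way.
SNRPE: ttctttattCCGGAAGttgctctcagaggc
LSM5: cgcttccgcagCTTCCGGgctgtcacctga
SF3B14: cggtacagagcCCGGAAGtgtcttggactc
SF3B4: ccgtcttcgccCCGGAAGtggaagtcgtgc
SNRPD2: ggtccatgcccCTTCCGGatgtaggcaggg

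The heptamer did not separate lower from higher members. The 17 members with it had a median log2 ratio of -0.11, of which 10 were lower, and their values ran between -1.47 and 0.53. The 23 members without it had a median of -0.16, of which 13 were lower, with values between -0.85 and 0.46. A match is a description of the letters in these windows and not a binding site.

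The SF3A and SF3B complexes are the parts of U2 snRNP that contact the branch region, and SF3B1 is the large scaffold that holds the branch-point adenosine. Within SF3B all 6 members that the symbol rule takes had an interval that left out 1 at the deposited scaling, with 4 lower and 2 higher. PHF5A, a further SF3B subunit that the rule leaves out, was within counting error. It had 28.0 RPKM in the ANGPTL4 library and 34.7 RPKM in the vector control library (ratio 0.807, 0.643 to 1.008). SF3B5 (chromosome 6, 144416018 to 144416754), a small subunit, had 58.7 RPKM in the ANGPTL4 library and 80.9 RPKM in the vector control library (ratio 0.726, 0.594 to 0.883). SF3B14, now named SF3B6, a small subunit that can be crosslinked to the branch-point adenosine, had 53.7 RPKM in the ANGPTL4 library and 71.6 RPKM in the vector control library (0.751, 0.637 to 0.882). The scaffold genes differed less. SF3B1 had 29.3 RPKM in the ANGPTL4 library and 33.9 RPKM in the vector control library (0.865, 0.798 to 0.937). SF3B3 had 33.4 RPKM in the ANGPTL4 library and 40.0 RPKM in the vector control library (0.834, 0.783 to 0.888).

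SF3B2 and SF3B4, which bind each other and contact the RNA upstream of the branch point, were the higher members. SF3B4 had 37.6 RPKM in the ANGPTL4 library and 28.7 RPKM in the vector control library (ratio 1.31, 1.12 to 1.53). SF3B2 had 67.4 RPKM in the ANGPTL4 library and 56.4 RPKM in the vector control library (1.20, 1.13 to 1.26). The levels of the SF3B members, without PHF5A, spanned 2.30 times in the ANGPTL4 library and 2.82 times in the vector control library, a narrower span than in the Sm ring. The SF3A genes showed no difference beyond counting error. SF3A3 had 19.7 RPKM in both libraries (interval of the ratio 0.868 to 1.15), the ratio nearest to 1 of all members, and SF3A1 and SF3A2 had ratios of 1.07 (0.961 to 1.20) and 0.864 (0.707 to 1.05).

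U2AF recognises the 3′ splice site, its large subunit U2AF2 binding the polypyrimidine tract and its small subunit U2AF1 the AG. U2AF2 had 43.9 RPKM in the ANGPTL4 library and 38.3 RPKM in the vector control library (ratio 1.15, 1.03 to 1.27). U2AF1 had 5.34 RPKM in the ANGPTL4 library and 6.08 RPKM in the vector control library (0.879, 0.738 to 1.04). The large subunit gene was well above the small one in RPKM in both libraries, but the exon lengths behind the values differ. The length was 4115 bases for U2AF2 and 11112 bases for U2AF1. U2AF2 had 584 reads in the ANGPTL4 library and 1035 in the vector control library, and U2AF1 had 192 and 444. The size of the gap therefore depends on the lengths used. U2AF1L4, a relative of U2AF1, was at 2.26 RPKM in the ANGPTL4 library and 1.91 RPKM in the vector control library, from 21 and 36 reads, the fewest of any member in either library.

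**Figure D3:**
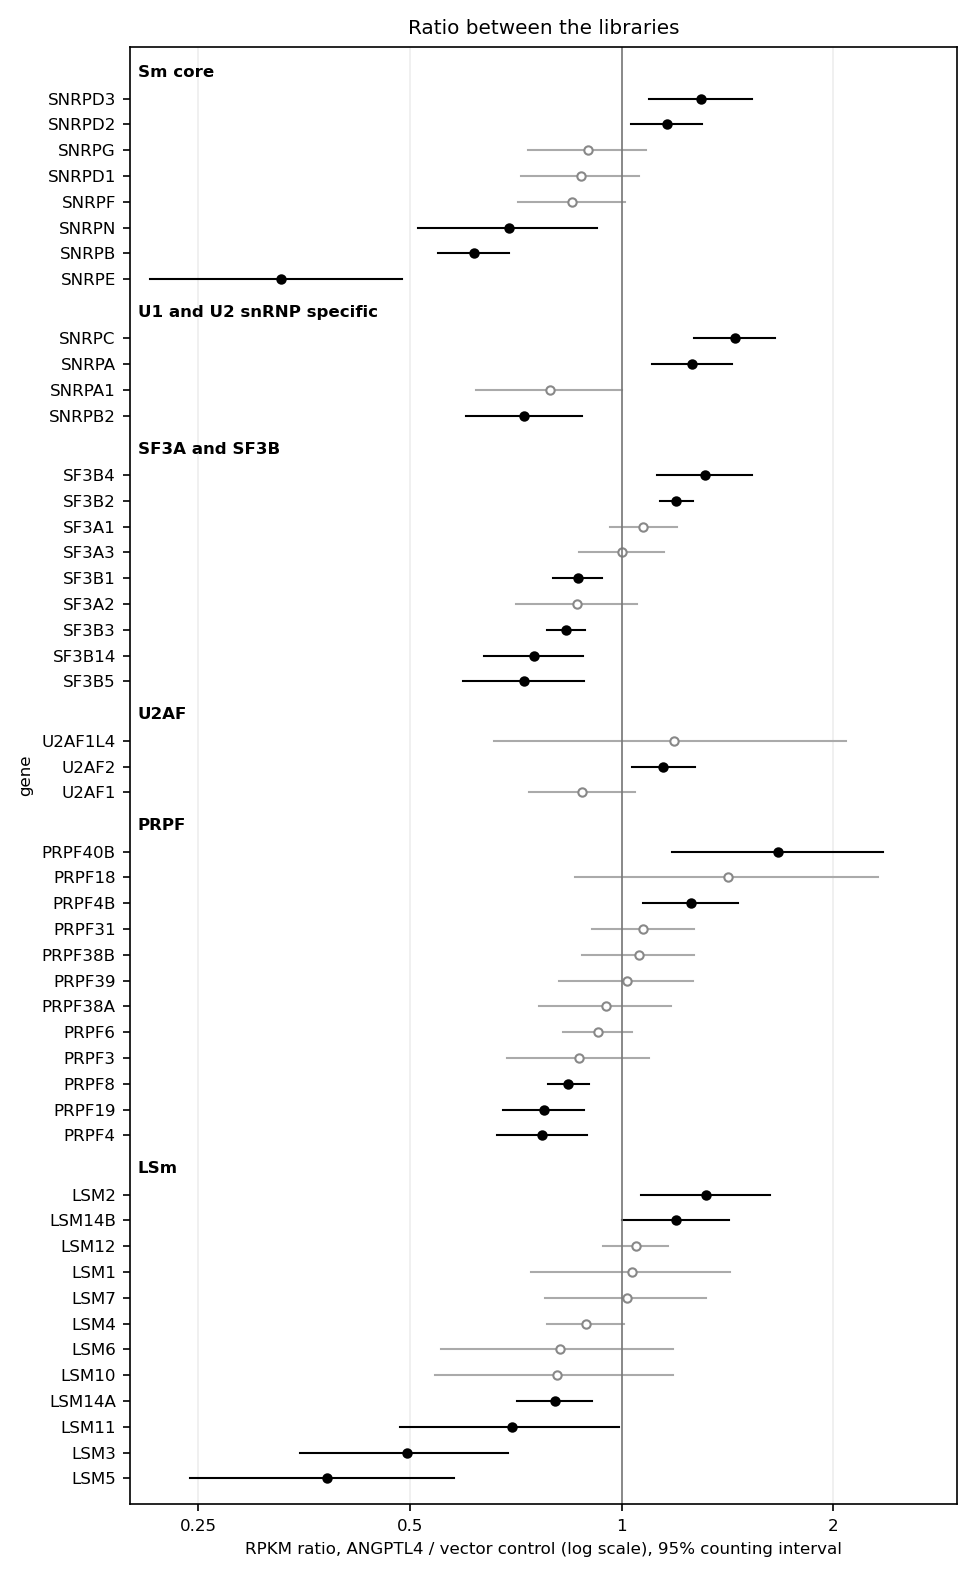
RPKM ratio, ANGPTL4 over vector control, of each member reported (log scale) with its 95% interval from reads, by class; filled points have an interval that leaves out 1, and 1 library per group was compared. The Sm and LSm classes hold the lowest ratios, SNRPE at 0.327 and LSM5 at 0.381, while the highest ratio is that of PRPF40B at 1.67.

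The 13 PRPF genes had a median log2 ratio of 0.02, with 6 lower and 7 higher, and none reached 1.5-fold with the pseudocount. Of the tri-snRNP proteins, PRPF8, the large U5 protein at the catalytic centre, had 32.2 RPKM in the ANGPTL4 library and 38.3 RPKM in the vector control library (ratio 0.840, 0.784 to 0.899). PRPF4, a U4/U6 protein, had 21.4 RPKM in the ANGPTL4 library and 27.8 RPKM in the vector control library (0.771, 0.664 to 0.893). Both were lower beyond counting error. The region of PRPF4 overlaps that of CDC26, at 9.74 RPKM in the ANGPTL4 library and 9.58 RPKM in the vector control library, so reads of the overlap are uncertain. The other 3 tri-snRNP members, PRPF3, PRPF6 and PRPF31, had ratios of 0.870 (0.687 to 1.10), 0.925 (0.826 to 1.04) and 1.07 (0.906 to 1.27), none of which left out 1.

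PRPF19, the ubiquitin ligase that gives the PRP19 complex its name, had 35.3 RPKM in the ANGPTL4 library and 45.6 RPKM in the vector control library (ratio 0.775, 0.678 to 0.884). The kinase gene PRPF4B had 10.4 RPKM in the ANGPTL4 library and 8.28 RPKM in the vector control library (1.25, 1.07 to 1.46). PRPF40B, whose yeast counterpart bridges the 5′ splice site and the branch point, was the least abundant member in the vector control library. It had 2.10 RPKM in the ANGPTL4 library and 1.26 RPKM in the vector control library, from 64 and 78 reads. Its ratio of 1.67 (1.18 to 2.35) was the highest of any member without a pseudocount, and its log2 ratio with the pseudocount was 0.46.

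A further 4 PRPF genes were within counting error. PRPF18, a factor of the second catalytic step, had 4.97 RPKM in the ANGPTL4 library and 3.51 RPKM in the vector control library (ratio 1.42, 0.859 to 2.31), a difference not detectable at 30 and 43 reads. PRPF38A, PRPF38B and PRPF39 had ratios of 0.949, 1.06 and 1.02, and PRPF39 was the gene of this class nearest to 1.

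The LSm proteins form 2 related rings that share LSM2 to LSM7, one closed by LSM8 on U6 RNA in the nucleus and one by LSM1 on decaying mRNA in the cytoplasm. LSM5 (chromosome 7, 32524951 to 32534895) had 1.78 RPKM in the ANGPTL4 library and 4.67 RPKM in the vector control library, from 27 and 144 reads. Its ratio was 0.381 (0.243 to 0.578) and its log2 ratio -1.03. LSM3 (chromosome 3, 14219858 to 14242619) had 3.65 RPKM in the ANGPTL4 library and 7.38 RPKM in the vector control library, a ratio of 0.494 (0.349 to 0.688) that rests on 45 and 185 reads. The region of LSM3 overlaps that of XPC, at 3.42 RPKM in the ANGPTL4 library and 4.09 RPKM in the vector control library, so reads of the overlap are uncertain.

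The other shared subunits had ratios nearer to 1 or above it. LSM2 had 42.8 RPKM in the ANGPTL4 library and 32.5 RPKM in the vector control library (ratio 1.32, 1.06 to 1.63). LSM4 had 36.7 RPKM in the ANGPTL4 library and 41.2 RPKM in the vector control library (0.889, 0.783 to 1.01). LSM6 and LSM7 had ratios of 0.817 (0.554 to 1.18) and 1.02 (0.778 to 1.32), and the interval of LSM6 overlaps those of LSM3 and LSM5. Across LSM2 to LSM7 the highest level was 24.1 times the lowest in the ANGPTL4 library and 8.84 times in the vector control library, with LSM5 lowest in both. These spans depend on the exon lengths used, which were 1077 bases for LSM2 and 4694 bases for LSM5. LSM2 had 149 reads in the ANGPTL4 library and 230 in the vector control library, and LSM5 had 27 and 144.

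The ring-closing subunits can be set beside each other. LSM1 had 10.8 RPKM in the ANGPTL4 library and 10.4 RPKM in the vector control library (ratio 1.03, 0.743 to 1.43). No row bears the name LSM8, but a row named NAA38 lies on chromosome 7, and RefSeq gives NAA38 as an older name of LSM8, while the gene now called NAA38 appears as LSMD1 on chromosome 17. That chromosome 7 row, singled out after its value was seen, had 4.63 RPKM in the ANGPTL4 library and 3.11 RPKM in the vector control library (1.49, 1.13 to 1.96). The intervals of these ring-closing genes overlap.

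LSM10 and LSM11 replace SNRPD1 and SNRPD2 in the ring of U7 snRNP, which trims histone mRNA. LSM11 had 2.07 RPKM in the ANGPTL4 library and 2.96 RPKM in the vector control library (ratio 0.699, 0.484 to 0.991), and LSM10 had a ratio of 0.809 (0.543 to 1.18). LSM14A, a protein of P-bodies, had 24.3 RPKM in the ANGPTL4 library and 30.2 RPKM in the vector control library (0.803, 0.711 to 0.906). Its paralogue LSM14B went the other way, with 19.1 RPKM in the ANGPTL4 library and 16.0 RPKM in the vector control library (1.19, 1.001 to 1.42). LSM12 was the most abundant LSm gene, with 58.6 RPKM in the ANGPTL4 library and 56.0 RPKM in the vector control library (1.05, 0.941 to 1.16). The 12 LSm genes had a median log2 ratio of -0.21, but 5 of them were higher.

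Members carried exons of a median 3381 bases in all, against 5081 bases for measured protein-coding genes. The 6 members under 1.5 kb held both SNRPE and SNRPC, and their median log2 ratio of -0.34 compares with -0.12 for 443 protein-coding genes of that length. The 14 members of 1.5 to 3 kb had a median of 0.08, against -0.16 for 1828 protein-coding genes. LSM5 and LSM3 lay in the class of 3 to 6 kb, where 19 members had a median of -0.19, against -0.14 for 4313 protein-coding genes. The 10 members over 6 kb had a median of -0.03, against -0.09 for 4230 protein-coding genes. Spearman's rho between exon length and log2 ratio was -0.01 across the 49 members and 0.10 across 10814 protein-coding genes, given as a description over genes that share both libraries. The members with the lowest ratios were found in more than 1 class of this length. It covers all annotated exons and can exceed the transcript in use, so the classes need not reflect transcript length. A part of transcript length in the ratios was not tested.

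Other genes of the splicing pathway were compared as a list of 85 names, of which 84 were present and all 84 measured. Their median log2 ratio was -0.03, with 44 lower and 40 higher. At the 1.5-fold limit 4 were lower, or 4.76%, and 2 were higher, or 2.38%, against 9.25% and 3.08% of all measured genes, and none was 2-fold apart in either direction on the scale with the pseudocount. The lower genes were GEMIN2 and GEMIN4 of the SMN complex that loads Sm rings onto RNA, SNRNP40 of U5 and SNRNP25 of the minor spliceosome. GEMIN2, which holds the open ring of SNRPD1, SNRPD2, SNRPE, SNRPF and SNRPG, had 2.44 RPKM in the ANGPTL4 library and 4.87 RPKM in the vector control library (ratio 0.502, 0.291 to 0.827). GEMIN4 had 5.59 RPKM in the ANGPTL4 library and 9.31 RPKM in the vector control library (0.601, 0.478 to 0.749). The ratios were 0.629 (0.488 to 0.804) for SNRNP40 and 0.547 (0.347 to 0.837) for SNRNP25.

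The assembly genes as a group went in both directions. The list counted the rows NAA38 and LSMD1 among them, and without these the 19 assembly genes had a median log2 ratio of -0.07, with 11 lower and 8 higher, while the whole list of 82 kept a median of -0.03. STRAP, the most abundant assembly gene, had 109 RPKM in the ANGPTL4 library and 116 RPKM in the vector control library (ratio 0.941, 0.863 to 1.03). SMN1 and SMN2, which are near-identical and share reads, had ratios of 0.929 and 1.07. Of the higher genes, ZCRB1 of the minor spliceosome had 31.9 RPKM in the ANGPTL4 library and 20.7 RPKM in the vector control library (1.54, 1.30 to 1.82). LUC7L2, a U1-associated protein, had 2.05 RPKM in the ANGPTL4 library and 0.550 RPKM in the vector control library, a ratio of 3.73 (2.22 to 6.41) without the pseudocount and a log2 ratio of 0.98 with it. A read-through row over the same locus had 14.3 and 13.2 RPKM in those libraries, and the sums were 16.3 and 13.8 RPKM. How reads were divided between these rows is not known, and its part in the difference was not tested. The genes nearest a log2 ratio of 0 were CWC25, DHX16 and ZRSR2 on the lower side and DHX35, CDC5L and TGS1 on the higher side, between -0.03 and 0.05.

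**Figure D4:**
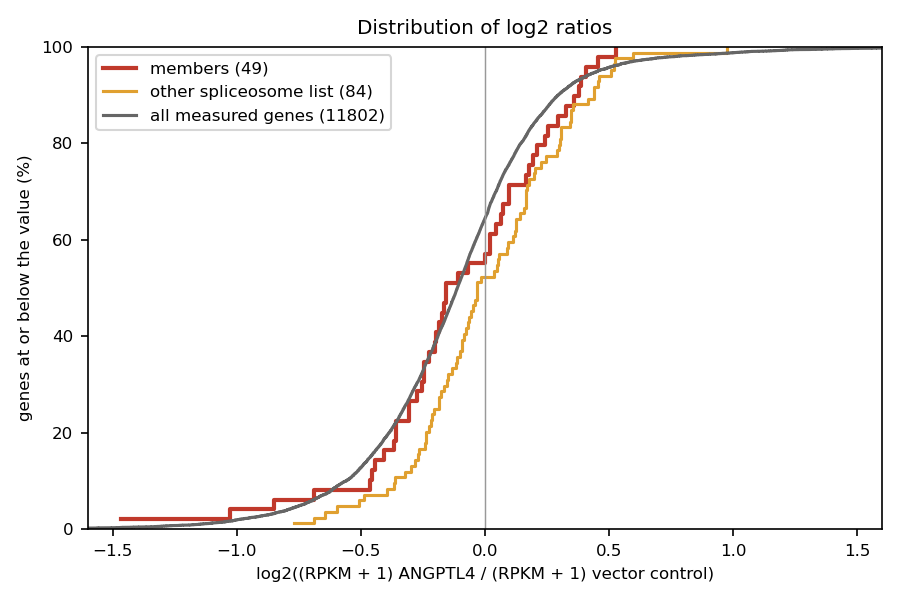
Cumulative share of genes (vertical axis, percent) at or below each log2 ratio of RPKM + 1, ANGPTL4 over vector control (horizontal axis), for the 49 members, the 84 other spliceosome genes and all 11802 measured genes; the axis leaves out genes beyond 1.6 in either direction. The member curve runs close to that of all genes, with medians of -0.16 and -0.11, and the curve of the other spliceosome genes lies for the most part to the right with a median of -0.03.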

How the data were processed

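The authors deposited 1 RPKM table for each of the 2 libraries, per the file headers, with coordinates on hg19 according to the submitters' processing notes. Which aligner, counter and annotation release were used, whether strand was, and how multiply matching reads were handled is not given in the sources used here. Since RPKM depends on total reads, a few abundant genes can shift all others. Rows of 1 symbol were summed, and region starts are printed counting from 1.

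Library totals were the smallest at which all 13 mitochondrial values became whole reads. Exon lengths were those within 10% of the GENCODE release 29 length at which both libraries gave whole reads (tolerance 0.0001). This settled 45 of 49 members, 38 of them at exactly the GENCODE length. For the reads of SNRPB, SNRPB2, SNRPD1 and LSM6 the smallest length that gave whole reads was used, which makes their read numbers lower limits and can only widen the intervals. In the comparison by exon length, SNRPB2, SNRPD1 and LSM6 were instead placed by their GENCODE lengths of 2607, 4909 and 3993 bases. Intervals are exact (Clopper-Pearson) binomial 95% intervals (SciPy 1.17.1), scaled by both depths. GENCODE and RefSeq follow GRCh38, and no coordinates were carried over between builds. Regions of 16 members overlap another row of at least 1 RPKM, and reads of such overlaps are uncertain also where the overlap is not named above.

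The pseudocount was 1 and the minimum 1 RPKM in a library. Tried besides were a pseudocount of 0.1 or 5, a minimum of 5 RPKM or none at all, 3 other scalings, correction for exon length by a running median over 501 genes, and the highest row of each symbol. The 2-fold limit, the read recovery and the intervals were tried on simulated libraries. Apart from planted changes these held counting error only, so differences between clones or library preparations were not covered. By rule, values were given for every Sm gene, for the 10 members at either end of the log2 ratios, for the member nearest 1 in each class, and for genes of the other spliceosome list past 1.5-fold or nearest 0. STRAP, SMN1, SMN2, SNRNP70 and PHF5A were named after their values were seen. The values of 1 member of the PRPF class are not reported here, though it enters all counts and medians. Members, lists and limits were chosen with earlier results of these data known.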

Additional observations from a re-analysis of the deposited data

How the results depend on the processing

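No paired analysis was possible because each group has 1 library. SNRPE was the only member at least 2-fold lower under 5 alternatives, where the count was 1 instead of 2: upper-quartile scaling, centring of the median gene at the same level, correction for exon length, a pseudocount of 5 and a minimum of 5 RPKM. A pseudocount of 5 left 2 members at least 1.5-fold lower and, of the other spliceosome list, 0 lower and 0 higher. After centring, upper-quartile scaling and the length correction 3 members were at least 1.5-fold lower. SNRPB fell short of the limit there, at log2 ratios of -0.580, -0.536 and -0.541 in that order. A minimum of 5 RPKM also left 3, since LSM5 did not reach it. With a pseudocount of 0.1, 1 member was at least 1.5-fold higher, PRPF40B at a log2 ratio of 0.69. After centring, upper-quartile scaling or the length correction 1 member passed as well, but it was SNRPC, at 0.64, 0.68 and 0.65. The 1.5-fold counts of the other spliceosome list were 4 higher with a pseudocount of 0.1, 1 higher with a minimum of 5 RPKM, 2 lower and 5 higher after centring, and 1 lower and 7 higher both after upper-quartile scaling and after the length correction.

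The medians moved with the scaling, since the median of all measured genes was -0.11 as deposited, -0.02 after centring, 0.02 after upper-quartile scaling and 0.00 after the length correction. In that order of the 3 alternatives the median of all members was -0.048, -0.0048 and 0.0020, the last of which changed sign. That of the Sm genes was -0.099, -0.056 and -0.062, of the LSm genes -0.10, -0.064 and -0.055, and of the SF3A and SF3B genes -0.093, -0.051 and -0.048. The PRPF median was 0.16 after upper-quartile scaling and 0.15 after the length correction, and it changed sign to -0.067 with a minimum of 5 RPKM, where the LSm median was -0.072. The median of the other spliceosome list changed sign to 0.072 after centring, 0.11 after upper-quartile scaling, 0.11 after the length correction and 0.012 when mitochondrial, ribosomal protein and small RNA genes were left out of the totals. The log2 ratio of SNRPE lay between -1.59 and -1.09 over all settings and that of LSM5 between -1.34 and -0.51. The cause was not tested. Depth limits the members with few reads most: the interval of PRPF18, from 30 and 43 reads, spans 0.859 to 2.31.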
